A study of Mus musculus with 32 samples.

Results

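Wild-type (WT) bone marrow-derived macrophages (BMDMs) given the caspase inhibitor zVAD and nothing else were compared with untreated WT BMDMs. The members were chosen by the sample labels: the 2 arrays of genotype WT with treatment zVAD and the 2 arrays of genotype WT without treatment, which are 4 of the 32 arrays of the series. These 4 cultures received no LPS, no interferon beta (IFNb) and no necrostatin-1 (Nec-1). The series held WT macrophages from C57BL/6 mice and Ifnar1-/- macrophages, which lack a chain of the type I interferon receptor. Each genotype was hybridised under 8 conditions with 2 arrays each, namely untreated, zVAD, LPS, IFNb, LPS+zVAD, IFNb+zVAD, LPS+zVAD+Nec-1 and IFNb+zVAD+Nec-1. Marrow cells of both genotypes had been differentiated with M-CSF, treated on day 7 and harvested 6 h later, and the study's methods give zVAD at 50 µM. The labels give LPS at 100 ng/mL and IFNb at 1000 U/mL, while other parts of the study state other doses, so the doses of those 2 agents are uncertain here. A solvent control for the untreated cells is not given in the sources used here, and the labels do not say whether the 2 arrays of a group came from separate animals or cultures, so p-values measure only the spread between these arrays, which may be technical. The question of the comparison is what caspase inhibition does to macrophage transcripts before any LPS or interferon is added.

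Caspases are cysteine proteases that cut proteins after aspartate. The initiator caspase-8 cuts the kinases RIPK1 and RIPK3 as well as the executioner caspases, and in doing so it both starts apoptosis and holds necroptosis in check. zVAD is a cell-permeable peptide that binds the active site of many caspases covalently. When caspase-8 is blocked in a macrophage whose TNF, Toll-like or interferon receptors are engaged, RIPK1 and RIPK3 can assemble into the necrosome, RIPK3 phosphorylates the pore-forming protein MLKL, and the cell may lyse. The same kinases also feed NF-kB and MAPK signalling, the pathways that induce TNF, chemokines and immediate early transcription factors.

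Values are log2 array intensities after quantile normalization, 1 probe per gene, for 15684 genes tested, and a difference of 1 on this scale is 2-fold. Replicates 1 and 2 of the WT groups lay on different slides, slide 1 and slide 2, scanned on different days, so that the zVAD and untreated arrays of the same number share a slide. Each gene therefore gave a difference within slide 1 and a difference within slide 2, and an exact permutation test of 2 arrays against 2 cannot go below p = 0.333 (two-sided). A limma fit over all 32 arrays gave the p-values, adjusted by Benjamini-Hochberg over all genes. Spots well above background made up 70.0% and 73.4% of the untreated arrays and 73.1% and 78.3% of the zVAD arrays, and no spot was saturated. All 9 macrophage markers were well above background on the 4 arrays, and their summed level was 19.97 and 19.92 in untreated cells and 20.10 and 19.94 with zVAD. The gene Ifnar1 itself read 14.22 and 14.19 in untreated WT cells, 14.77 and 14.49 in WT cells with zVAD, and 11.90 and 11.87 in untreated Ifnar1-/- cells. Whether its probe lies in the deleted part is not known here. The 2 genotypes also lay on separate slides, so this gap in level cannot be told apart from a slide difference. Lists of other cell types were not all at the floor. Neutrophil markers summed to 14.19 and 15.30 in untreated cells and 14.33 and 15.23 with zVAD, thus differing more between slides than between treatments, and dendritic cell markers, led by Siglech, to 16.63, 16.39, 16.67 and 16.26. T cell markers summed to 13.97 and 14.30 against 13.80 and 13.32, with the defining genes Cd3d and Cd3g between 2.73 and 6.51 and Cd3e at 11.13 and 10.16 against 11.40 and 9.98.

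Some arrays stood apart. The array labelled Ifnar1-/- zVAD replicate 2 correlated at r = 0.996 with untreated replicate 2 of the same genotype across genes, and its Tnf level of 10.12 lay between the untreated 9.90 and 10.13, while replicate 1 read 12.86. The 2 arrays labelled Ifnar1-/- LPS+zVAD+Nec-1 disagreed with each other, with Tnf at 15.96 and 9.99, and this 1 pair supplied 17.6% of the variance pooled over the 16 groups. That pair is not part of the comparison but enters its error, so the fit was repeated without it. This change leaves every fold change as it is and alters only the standard errors. The pair was set aside after its values were seen, so a pass found only without it is not an independent result.

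With all 32 arrays, 1 of 15684 genes passed the test for zVAD against untreated, Ccl4, which was higher (0.00638% of genes; 0 genes lower). At an unadjusted p under 0.05 there were 526 genes higher (3.35%) and 368 lower (2.35%). Together these were 894 of 15684 genes, close to the share of 0.05 expected with no effect. The unadjusted counts given below for comparisons with Ifnar1-/- cells or IFNb lie under that share, so unadjusted p-values there are descriptive. Without the discordant pair, 36 genes passed, 28 higher (0.179%) and 8 lower (0.0510%), and each of these had the same sign on both slides. With slide as a replicate block and all arrays, 37 genes passed, 29 higher (0.185%) and 8 lower (0.0510%), of which 16 were among those 36. With both changes 371 passed, 218 higher (1.39%) and 153 lower (0.976%). Leaving out WT zVAD replicate 1 gave 57 genes, 44 higher and 13 lower, leaving out zVAD replicate 2 gave 1, which was lower and so not Ccl4, leaving out untreated replicate 1 gave 15, all lower, and leaving out untreated replicate 2 gave 0 (389 at an unadjusted p under 0.05). By size alone, 134 of 15575 genes with values on all 4 arrays were at least 2-fold higher within both slides (0.860%) and 64 were at least 2-fold lower within both (0.411%). Both zVAD arrays lay above both untreated arrays in 18.5% of those genes and below them in 18.3%, so that groups without overlap are common here. The difference within slide 2 was wider, with an SD across genes of 0.662 against 0.338 on slide 1, and across genes, which are no independent replicates, the differences of the 2 slides correlated at r = 0.548. The median of all genes was -0.03. In the following, "passed" without further words means adjusted p under 0.05 with all arrays, the fit without the pair is named where it is used, and "with the block as well" means both without the pair and with the block.

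**Figure D1:**
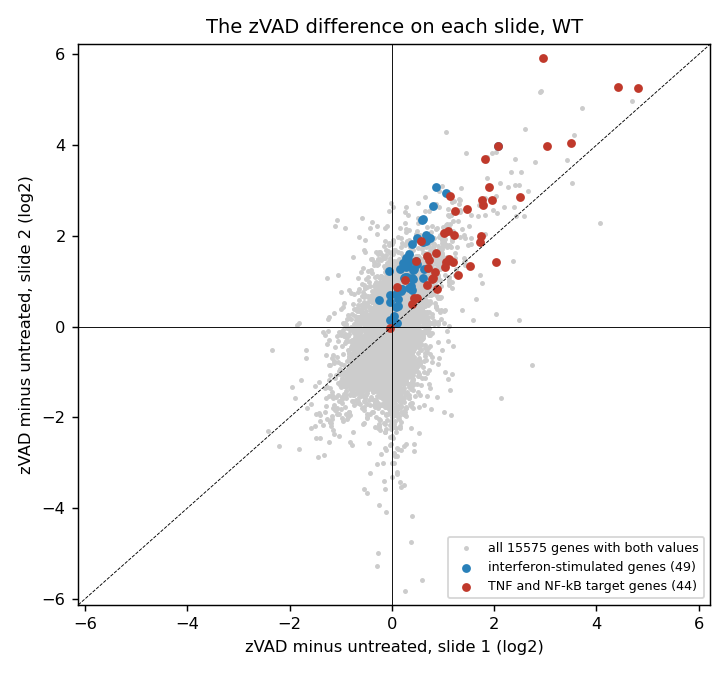
Difference between zVAD and untreated WT macrophages within slide 1 (x axis, log2) against that within slide 2 (y axis, log2) for 15575 genes, each point a gene. Genes of the TNF and NF-kB target list (red, 44 tested) lie to the upper right on both slides, whereas interferon-stimulated genes (blue, 49 tested) have a median of 0.33 on slide 1 and 1.26 on slide 2.

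Chemokines, the secreted proteins that draw leukocytes, held the gene that passed and several of the largest differences. Ccl4 (macrophage inflammatory protein 1 beta; probe at mm9 chr11:83478052-83478111) read 10.71 and 11.43 in untreated cells and 15.41 and 16.40 with zVAD. Both zVAD arrays were far above both untreated arrays, and Ccl4 rose by 4.83 ± 0.69 (log2, SE, n = 2 and 2), or 28.5-fold, with a limma adjusted p of 0.0201. That p was 7.37e-05 without the discordant pair, and over the alternatives that kept all 4 arrays it exceeded 0.05 only in a fit of those 4 arrays by themselves (0.839). With arrays left out in turn it was 0.00962 without zVAD replicate 1, 0.494 without zVAD replicate 2, 0.0529 without untreated replicate 1 and 0.0850 without untreated replicate 2, while the difference stayed between 4.34 and 5.33.

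Ccl3, the sister chemokine next to Ccl4 (probe at mm9 chr11:83461358-83461417), went from 12.15 and 12.47 to 15.72 and 16.70, a difference of 3.90 ± 0.90 with an adjusted p of 0.266 that became 0.00356 without the pair. Ccl2, the chief monocyte attractant, went from 9.65 and 9.60 to 12.16 and 12.45, a difference of 2.68 ± 0.59 (adjusted p 0.215, 0.0409 without the pair, 0.0495 with the block). Its neighbours in the same family, Ccl7 and Ccl12, were higher by 2.82 and 2.63 and did not pass in either fit. The neutrophil attractant Cxcl2 read 8.48 and 8.51 without zVAD and 12.91 and 13.78 with it, a difference of 4.85 ± 1.44 that missed the threshold with all arrays and without the pair (adjusted p 0.469 and 0.0924) and passed without the pair and with the block (0.0217). Cxcl1, which acts on the same receptor, read 7.57 and 7.93 against 11.07 and 11.97 (3.77 ± 1.47, adjusted p 0.714, 0.147 without the pair, 0.0462 with the block as well). For both genes the zVAD arrays were far above the untreated ones, as for Ccl3, but the standard error was larger. Cxcl10, an interferon-inducible T cell attractant, stood at 13.33 on both untreated arrays and at 15.41 and 17.32 with zVAD (3.04, adjusted p 0.620).

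Of the 27 chemokine genes listed, 23 were tested. The list had 19 members higher and 4 lower, 9 at least 2-fold higher on both slides (39.1% against 0.860% of all genes) and none 2-fold lower on both. Its median was 0.48, so that the high values belonged to a subset: Ccl5, Ccl8, Cxcl14 and Cxcl11 differed by 0.48, 0.14, 0.02 and -0.03. The lowest member was the stromal factor Cxcl12, at 6.23 and 6.80 without and 5.46 and 5.16 with zVAD (-1.20, adjusted p 0.985). One chemokine passed with all arrays (Ccl4) and 3 without the pair (Ccl4, Ccl3 and Ccl2).

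**Figure D2:**
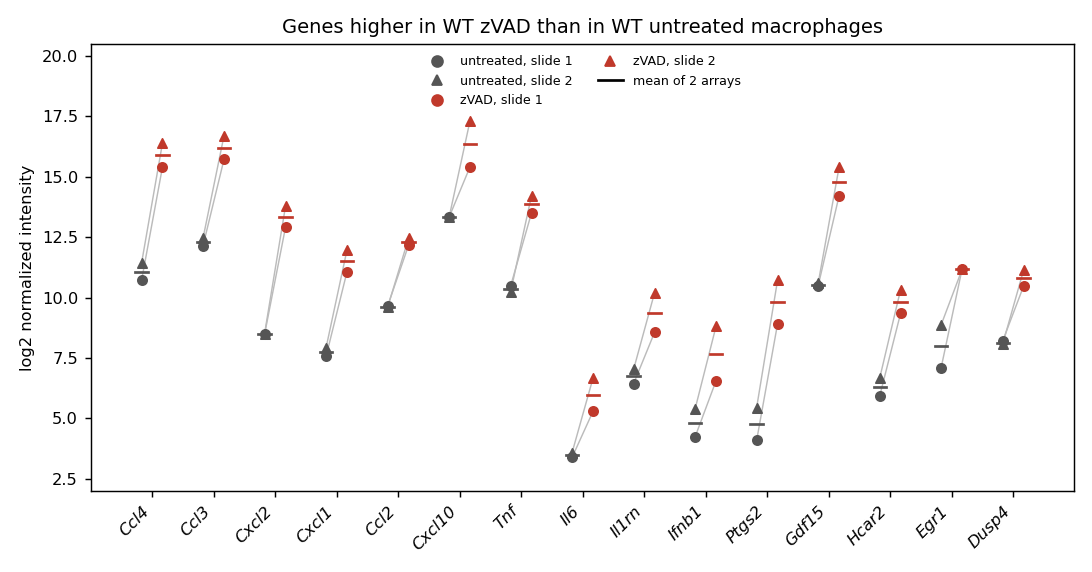
Level (log2 normalized intensity, y axis) of 15 genes on each of the 4 arrays, untreated in grey and zVAD in red, circles for slide 1 and triangles for slide 2, with a bar at each group mean. The red points lie above the grey points for all 15 genes shown, with means 5.05 apart for Ptgs2, 4.83 for Ccl4 and 2.49 for Il6.

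Promoter sequence was at hand for some of these genes as RefSeq windows on mouse build GRCm38.p6, from 250 bases before to 50 after each annotated start. The windows were searched on both strands for the kappaB motif, which NF-kB binds, for TGANTCA, which AP-1 binds, and for TGACGTCA, the cAMP response element (CRE). The kappaB motif is palindromic in part, so that a site can match on both strands, and TGANTCA and TGACGTCA cannot match at the same position. It occurred in 8.46% of all 32851 windows, in 51.3% of the 39 windows of the 34 TNF and NF-kB target genes found, in 22.1% of the 145 windows of 107 genes at least 2-fold higher on both slides, and in 8.57% of the 70 windows of 44 genes at least 2-fold lower on both. For CRE the shares were 1.79% of all windows, 6.21% of the higher set and 5.71% of the lower set. For AP-1 they were 7.81%, 9.66% and 7.14%. Other motifs searched were the CArG box (1.63%, 3.45% and 1.43%), CARE (0.965%, 1.38% and 0%) and the antioxidant response element (12.4%, 17.2% and 15.7%). The TNF and NF-kB list is made of known NF-kB targets, so its share describes the list and not these cells. Of its genes, 27 were themselves at least 2-fold higher on both slides, so the share of the higher set is not independent of that list. A selection of the sites follows, each on its gene's strand with the motif in capitals. A match is a description of the sequence and was not tied to binding here. The windows of Ptgs2, Tnf, Ccl3, Gdf15 and Acod1, which had some of the largest differences, held none of these motifs, which says only that these letters are not in the windows searched.
Cxcl1, kappaB, chr5:90891166-90891191, plus strand: tgtactccGGGAATTTCCctggcccg
Cxcl2, kappaB, chr5:90903794-90903819, plus strand: tgagctcaGGGAATTTCCctggtccc
Cxcl10, kappaB, chr5:92349031-92349056, minus strand: aggggagaGGGAAATTCCaagttcat
Il6, kappaB, chr5:30013062-30013087, plus strand: tcaaatgtGGGATTTTCCcatgagtc
Tnip3, kappaB, chr6:65590336-65590361, plus strand: gacatcctGGGAAATCCCagttacat
Il1rn, AP-1, chr2:24336711-24336733, plus strand: tgctagacTGAGTCAcgcctctg
Plaur, AP-1, chr7:24462406-24462428, plus strand: cctggagcTGACTCActctttag
Plk2, CRE, chr13:110394974-110394997, plus strand: gctcgccgTGACGTCAcgaggccc
Slco2b1, AP-1, chr7:99711313-99711335, minus strand: ggaggaagTGACTCAtcttccgg

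The Cxcl1 and Cxcl2 sites hold the same 10 letters, with the first base at -71 and -97 from the start, and these 2 genes differed by 3.77 and 4.85. The Il6, Tnip3, Il1rn, Plaur and Plk2 sites belong to genes that were higher and passed without the pair, and the Slco2b1 site to a gene that was lower and passed there.

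Cytokines formed the next group. Tnf, the ligand that starts death receptor signalling in macrophages (probe at mm9 chr17:35336795-35336854), read 10.48 and 10.24 in untreated cells and 13.51 and 14.22 with zVAD, 11.4-fold higher in the mean. The difference of 3.51 ± 1.12 did not pass with all arrays (limma adjusted p 0.576) and passed without the pair (0.0228). In that pair Tnf read 15.96 and 9.99, and without it the standard error was 0.55. The pair was set aside with these Tnf values known, so the second result is no independent support for Tnf. Gdf15, a stress-induced cytokine of the TGF-beta family, went from 10.49 and 10.59 to 14.21 and 15.40, 19.2-fold (4.26 ± 0.84, adjusted p 0.111, 0.0485 without the pair, 0.0139 with the block). Il1rn, the antagonist of the interleukin 1 receptor, went from 6.44 and 7.03 to 8.56 and 10.19 (2.64 ± 0.46, adjusted p 0.0761, 0.0228 without the pair, 0.00484 with the block).

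Il6 was low throughout. It read 3.39 and 3.58 in untreated cells, where 1 of 2 arrays was well above background, and 5.29 and 6.67 with zVAD, and passed without the pair (adjusted p 0.0450). Il1b, the inflammasome substrate, read 10.10 and 11.01 against 12.14 and 12.43 (1.73 ± 1.80, adjusted p 0.469 without the pair), and Il1a, well above background on 1 of 2 untreated arrays, read 2.32 and 3.42 against 4.28 and 6.20. Ifnb1, the type I interferon of macrophages, was higher on both slides, from 4.23 and 5.39 to 6.55 and 8.81 (2.87 ± 1.02), and did not pass in either fit (adjusted p 0.647 and 0.330). The anti-inflammatory Il10 overlapped between groups, 6.50 and 7.12 against 6.45 and 7.79. Tnfsf9, the ligand of 4-1BB, was higher by 2.80 and Csf1, the growth factor of these cells, by 1.61, neither passing. Of 20 cytokine genes tested, 17 were higher, with a median of 1.02 (0.53 on slide 1 and 1.42 on slide 2), and 8 were at least 2-fold higher on both slides (40.0%). None passed with all arrays and 3 passed without the pair: Tnf, Il1rn and Il6.

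Genes induced by TNF and NF-kB were higher almost throughout. Of 44 tested, 43 were higher and 1 was lower, Vcam1 at -0.03. The median was 1.37, against -0.03 over all genes, with 1.13 on slide 1 and 1.60 on slide 2, and 27 (61.4%) were at least 2-fold higher on both slides. The list holds chemokines and cytokines already described. Its top member was Ptgs2 (cyclooxygenase 2, the inducible enzyme of prostaglandin synthesis), which went from 4.09 and 5.45 to 8.91 and 10.72, a difference of 5.05 ± 1.44 that was the largest of all genes tested here and passed without the pair (adjusted p 0.461 with it, 0.0240 without). It was 3.27 with normexp background correction, where Ccl4 was larger. Members that restrain the pathway were higher too. Tnfaip3 (A20, the ubiquitin-editing brake on NF-kB) read 11.83 and 11.98 against 13.62 and 14.67 (2.24, adjusted p 0.0891 without the pair, 0.0124 with the block as well), its partner Tnip3 read 11.46 and 11.67 against 13.18 and 13.54 (1.79; 0.0333 without the pair), and the inhibitors Nfkbia and Nfkbie were higher by 1.24 and 1.87 without passing. Plaur, the urokinase receptor, was 1.31 higher (adjusted p 0.0437 without the pair). Without the pair 6 genes of the list passed, Ptgs2, Tnf, Ccl2, Il6, Tnip3 and Plaur, and with all arrays none did.

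Some inducible genes of inflamed macrophages outside those lists had differences of the same size. Acod1, which makes itaconate, read 12.54 and 10.82 in untreated cells and was higher by 2.89 and 5.18 on slides 1 and 2 (4.03). Olr1, a scavenger receptor for oxidised LDL, read 4.86 and 4.45 against 7.78 and 9.65 (4.06). Hcar2, the receptor for niacin and ketone bodies, read 5.92 and 6.66 against 9.34 and 10.32 (3.55). Of these 3, Hcar2 passed without the pair (adjusted p 0.0409), and Acod1 and Olr1 did not (0.0995 and 0.0927) except with the block as well (0.0379 and 0.0355). Gch1, the first enzyme of tetrahydrobiopterin synthesis, was higher by 1.65 and passed without the pair (0.0409). Stx11, a syntaxin, went from 8.81 and 8.94 to 10.52 and 11.63 and Rgcc, a cell cycle regulator, from 8.64 and 8.50 to 10.59 and 12.34. Stx11 was the gene nearest the threshold after Ccl4 with all arrays, together with Slc16a6 and Il1rn (adjusted p 0.0761 for each), and passed without the pair (0.0228) and with the block (0.0202). Other genes higher without the pair, chosen here after their values were seen, were the kinases Pim1 and Plk2, the transcription factor Ets2, and Phlda1, Coq10b, Abtb2, Gm6377, Rdh8, Rgl1, Spryd7, Tma16 and Tubb6, with differences from 1.01 (Rdh8) to 2.51 (Phlda1).

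Immediate early genes, the transcription factors that MAPK signalling switches on within minutes, were higher in part. Egr1 read 7.10 and 8.87 in untreated cells and 11.18 and 11.16 with zVAD, a difference of 3.18 ± 0.60 (adjusted p 0.111, 0.0307 without the pair, 0.0366 with the block). The 2 untreated arrays differed by more than the 2 zVAD arrays did. The small Maf factor Maff went from 7.72 and 8.19 to 10.52 and 11.82 (3.21, adjusted p 0.425, 0.129 without the pair, 0.0495 with the block). Egr2 was higher by 2.33, Jun by 1.40, Junb by 1.11 and Fos by 1.02 (Fos passed with the block, adjusted p 0.0495), whereas Klf4 read 11.07 and 10.98 against 10.90 and 10.94. Of 23 tested, 19 were higher with a median of 0.47, 7 (30.4%) were at least 2-fold higher on both slides, and 1 passed without the pair, Egr1. The phosphatases and Spred proteins that switch MAPK off again are induced by the same pathway. Dusp4, a nuclear ERK phosphatase, read 8.20 and 8.07 against 10.47 and 11.14 (2.67 ± 0.69, adjusted p 0.405, 0.0670 without the pair, 0.00886 with the block as well). Spred1 read 10.85 and 10.88 against 11.92 and 12.93 and passed without the pair (0.0240). Dusp2 and Dusp1 were higher by 1.86 and 1.69, and Dusp7 differed by -0.40 without passing. The 14 genes of this list had a median of 1.23, and 8 (57.1%) were at least 2-fold higher on both slides. The median was 0.60 with normexp background correction and 0.70 in the authors' own normalized values (the cause was not tested).

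The mRNA-binding protein Zfp36 (tristetraprolin), which shortens the life of Tnf and chemokine messengers, read 10.42 and 10.39 in untreated cells and 11.17 and 11.79 with zVAD. Both zVAD arrays were above both untreated ones, and the difference of 1.08 ± 0.55 did not pass (adjusted p 0.908, 0.674 without the pair). The 17 genes of AU-rich element binding proteins had a median of 0.23, and none was 2-fold changed on both slides.

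**Figure D3:**
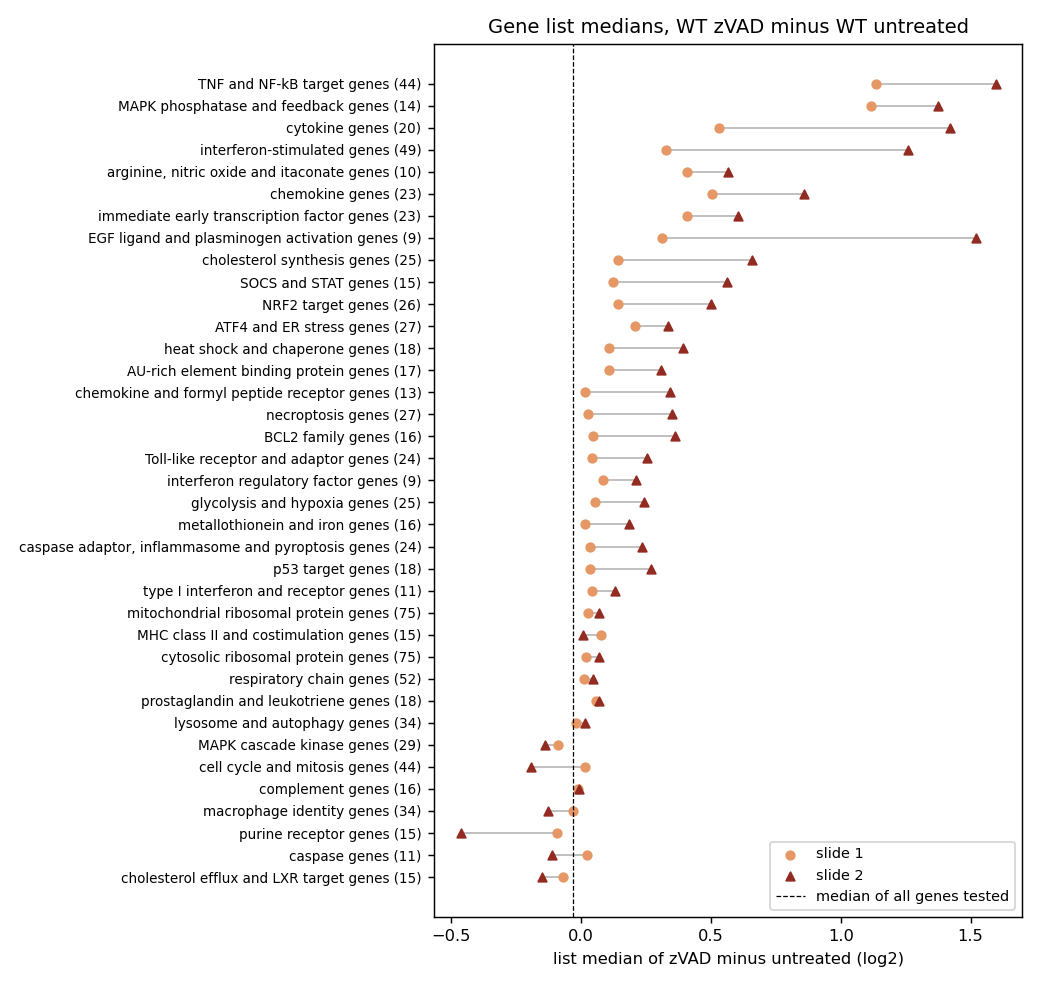
Median difference (log2, zVAD minus untreated) of 37 gene lists within slide 1 and within slide 2, 1 row per list, with the median of all genes for comparison. The TNF and NF-kB list is highest on slide 2 (1.60) and on slide 1 (1.13), followed on slide 1 by MAPK phosphatases (1.11), while ribosomal and respiratory chain lists lie near 0.

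Stress genes gave a mixed picture. Chac1, the glutathione-degrading target of ATF4, read 5.78 and 5.46 against 9.30 and 8.63 (3.35 ± 1.90, adjusted p 0.967), and the cystine transporter Slc7a11, a target of ATF4 and NRF2, read 4.07 and 4.69 against 6.48 and 8.39 (3.05 ± 1.48; 0.876). For both the zVAD arrays were well above the untreated ones, with standard errors larger than that of Ccl4. Hmox1, the heme oxygenase that NRF2 controls, read 14.51 and 14.42 against 14.75 and 15.07 (0.45). The inducible Hsp70 gene Hspa1a went from 7.70 and 7.39 to 9.01 and 10.20. It passed with the block (adjusted p 0.0408) but not with all arrays (0.461) or without the pair (0.212). Its lowest limma adjusted p over all the alternative fits, those with an array left out aside, was 0.0131. Medians were 0.30 for 26 NRF2 targets, 0.29 for 27 ATF4 and ER stress genes, 0.24 for 18 chaperone genes and 0.42 for 25 cholesterol synthesis genes. At least 2-fold higher on both slides were 3, 3, 1 and 0 of them, and none passed in either fit.

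Interferon-stimulated genes (ISGs), the antiviral genes switched on through the type I interferon receptor, were higher in the mean in all 49 members tested, from 0.05 (Ifi27l2a) to 3.04 (Cxcl10). Their median was 0.80, made of 0.33 on slide 1 and 1.26 on slide 2. Cmpk2 read 11.53 and 11.39 against 12.14 and 13.75, Ifit2 11.63 and 11.76 against 12.22 and 14.11, and Rsad2 (viperin) 11.87 and 11.96 against 12.73 and 15.03. In each the zVAD array of slide 2 was much the highest of the 4. Only Cxcl10 and Gbp5 (4.08% of the list) were at least 2-fold higher on both slides, and none passed in either fit. In Ifnar1-/- cells Cxcl10 differed with zVAD by 5.90 and 0.05 on the 2 slides, and by 5.82 and 4.35 with IFNb. The list medians there were 0.09 and 0.18, so Cxcl10 did not stand for the list. The least changed member, Ifi27l2a, read 16.96 and 16.69 against 16.92 and 16.85. Irf1, an interferon and NF-kB target, read 14.70 and 14.93 against 15.38 and 16.49 (1.12, adjusted p 0.491). Slide 2 also held the wider differences over all genes, and what share of the ISG difference goes with that was not tested.

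Genes of the cell death machinery did not move as 1 group, and none passed with all arrays or without the pair. Casp8 read 12.97 and 13.28 against 13.02 and 13.16 (-0.04 ± 0.23). Casp2 read 13.97 and 14.16 against 13.51 and 13.38 (-0.62), and Casp4 (caspase-11, the sensor of intracellular LPS) 13.52 and 13.65 against 14.32 and 15.42 (1.28, adjusted p 0.686, 0.129 without the pair, 0.0212 with the block as well). Cflar, which encodes the caspase-8 partner cFLIP, read 10.47 and 10.50 against 11.36 and 12.05 (1.22 ± 0.49, adjusted p 0.720, 0.0899 without the pair, 0.0133 with the block as well). Both zVAD arrays were above both untreated ones for Casp4 and Cflar, and below for Casp2, as in 18.5% and 18.3% of all genes.

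Among the necrosome genes, Ripk1 read 12.13 and 11.87 against 12.01 and 11.88 (-0.06 ± 0.16), Ripk3 11.21 and 11.34 against 11.44 and 11.48 (0.18 ± 0.28), and Mlkl 11.02 and 10.41 against 10.98 and 11.12 (0.33 ± 0.27). The sign for Casp8 and for Ripk1 turned with a 75th percentile scaling, to 0.05 and 0.01. Bmf, a pro-apoptotic BH3-only protein, was the exception with lower values, 12.77 and 13.05 against 11.59 and 11.55 (-1.34 ± 0.62, adjusted p 0.853, 0.294 without the pair, 0.0457 with the block as well), and Pmaip1 (Noxa) of the same class was higher by 1.20 without passing. Bcl2l1, the gene of the survival factor BCL-XL, was higher by 0.87 and passed with the block (adjusted p 0.0495) but not without the pair (0.140). List medians were -0.18 for 11 caspase genes, 0.19 for 27 necroptosis genes and 0.17 for 16 BCL2 family genes. Of these lists none passed with all arrays or without the pair, and Tnfaip3 alone was at least 2-fold higher on both slides while Bmf alone was as much lower.

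**Figure D4:**
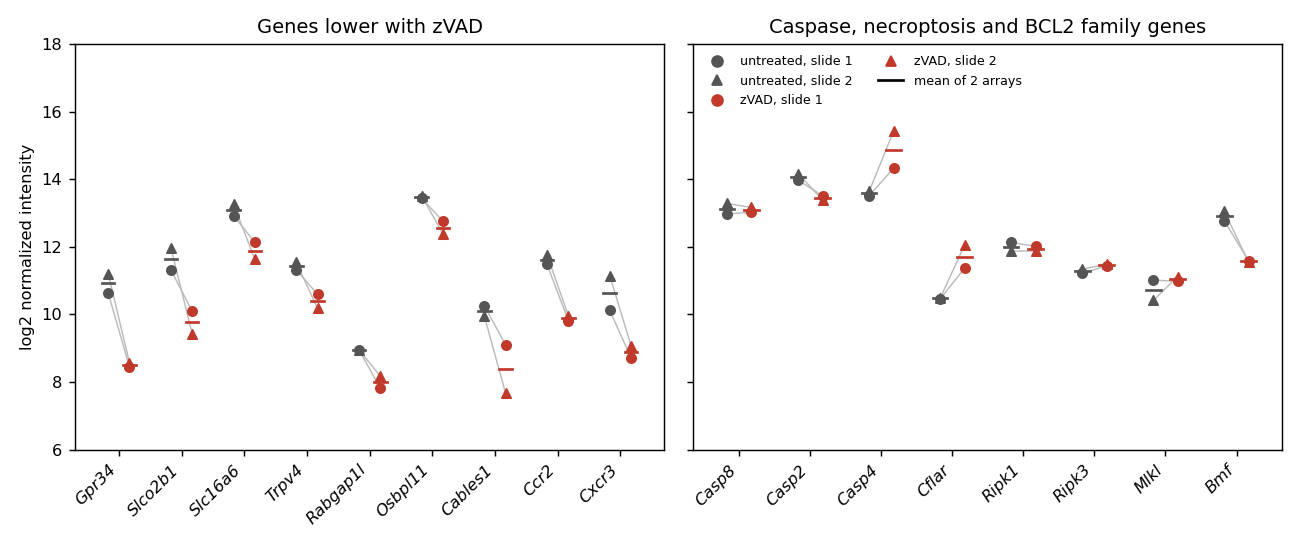
Level (log2 normalized intensity, y axis) on each of the 4 arrays of genes that were lower with zVAD (left) and of cell death genes (right), untreated in grey and zVAD in red, circles for slide 1, triangles for slide 2, bars at the means. Gpr34 lies 2.42 lower in the mean and Slc16a6 1.21 lower with no overlap, whereas Casp8, Ripk1 and Ripk3 lie within 0.18 of their untreated means.

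At the 2-fold limit on both slides fewer genes were lower (64) than higher (134), although over all genes more lay below 0 (8548) than above (7136). Gpr34, a receptor for lysophosphatidylserine found on resting macrophages and microglia (probe at mm9 chrX:13217863-13217922), read 10.64 and 11.21 in untreated cells and 8.44 and 8.57 with zVAD, 5.34-fold lower. It did not pass with all arrays (-2.42 ± 0.91, adjusted p 0.697) and passed without the pair (0.0263). Slc16a6, a monocarboxylate transporter family member, read 12.92 and 13.26 against 12.13 and 11.63 and was nearer the threshold (-1.21 ± 0.21, adjusted p 0.0761, 0.0240 without the pair, 0.0264 with the block). The Rab GTPase-activating protein gene Rabgap1l read 8.95 on both untreated arrays and 7.82 and 8.18 with zVAD (-0.95, adjusted p 0.0453 without the pair, 0.0118 with the block). The organic anion transporter Slco2b1 (-1.89), the cation channel Trpv4 (-1.04), the lipid-binding Osbpl11 (-0.91), Cables1 (-1.72) and 0610040J01Rik (-2.37) completed the 8 that passed without the pair. Rabgap1l differed by only -0.23 in the authors' values and by -0.57 with the mean of its probes.

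Several lower values rested on slide 2. Gm11938 read 7.40 and 11.06 in untreated cells and 7.11 and 5.79 with zVAD, and D14Ertd670e read 9.30 and 11.90 against 9.06 and 7.97. Mapt read 6.18 and 7.94 against 5.68 and 4.28, Epha8 5.38 and 7.77 against 5.12 and 2.77, and Kcnab1 7.64 and 10.52 against 7.10 and 6.93. In these 5 genes untreated replicate 2 was the highest of the 4 arrays, the slide 1 difference did not exceed 0.54 in size, and none passed with all arrays or without the pair. The zVAD array of slide 2 was the lowest of the 4 in each.

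Markers of macrophage identity differed little in the median, and more were lower than higher. Of 34 tested, 13 were higher and 21 lower, with a median of -0.11. Both zVAD arrays lay below both untreated arrays in 14 of the 34 and above them in 5, where the shares over all genes were 18.3% and 18.5%. The receptor for apoptotic cells Mertk read 12.15 and 12.65 against 11.31 and 10.77 (-1.36 ± 0.46, adjusted p 0.620, 0.0935 without the pair, 0.0212 with the block as well), and the lineage factors Maf and Cebpa were lower by 0.89 and 0.90 without passing. Chemokine receptors split. Ccr2, the receptor of CCL2, read 11.48 and 11.76 against 9.82 and 9.97 (-1.72 ± 0.62, adjusted p 0.654, 0.134 without the pair), and Cxcr3, the receptor of CXCL10, read 10.12 and 11.15 against 8.72 and 9.07 (-1.74 ± 0.56; 0.580 and 0.120). The decoy receptor Ccrl2 was higher by 2.36 and the formyl peptide receptors Fpr1 and Fpr2 by 1.75 and 2.06. Of 13 receptors, 3 were at least 2-fold higher and 3 at least 2-fold lower on both slides (23.1% each), and none passed. Ciita, the master regulator of MHC class II, read 9.37 and 10.22 against 7.42 and 8.88 (-1.64, adjusted p 0.983). Cxcr3 and Ccr2 are also carried by T cells and monocytes, and the T cell sum was 14.30 against 13.32 on slide 2 and 13.97 against 13.80 on slide 1. The members of that list split on slide 2. Cd4 (13.23 against 11.87), Cd28 (13.15 against 12.27), Cd3e (10.16 against 9.98), Cd3d and Cd8a were lower with zVAD, and Lck, Cd5, Cd3g and Tcf7 were higher. The part of T cells in the receptor values was not tested. In bulk RNA, fewer cells of a type and less RNA per cell cannot be told apart.

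Housekeeping lists stayed near 0. Medians were 0.03 for 75 cytosolic ribosomal protein genes, 0.05 for 75 mitochondrial ribosomal protein genes, 0.00 for 52 respiratory chain genes and -0.07 for 44 cell cycle genes, and of these genes only E2f2, a cell cycle factor, was at least 2-fold changed on both slides, from 12.16 and 12.23 to 11.05 and 10.39 (-1.47, adjusted p 0.868).

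The same inhibitor was given to Ifnar1-/- macrophages, where no gene passed (54 at an unadjusted p under 0.05; 0 adjusted and 99 unadjusted without the pair). At least 2-fold higher on both slides were 15 genes (0.0957%) and 1 was as much lower (0.00638%). The differences of the 2 slides were not correlated there (r = -0.017 across genes), as replicate 2 lay beside the untreated arrays. On the slide of replicate 1, Tnf differed by 2.97, Cxcl1 by 4.72 and Ccl4 by 2.46, and on that of replicate 2 by -0.00, 0.43 and 0.05. Because of that array, zVAD added to IFNb was examined as well in Ifnar1-/- cells, a comparison chosen after the data were seen. With IFNb alone Ccl4 read 11.42 and 11.49 there, against 11.22 and 11.53 in untreated cells. On the 2 slides zVAD then differed from IFNb alone by 3.46 and 3.04 for Tnf, by 5.48 and 3.87 for Cxcl1 and by 2.27 and 1.86 for Ccl4. The gene 4933438K21Rik passed in this comparison (0.00638% of genes; unadjusted p was under 0.05 for 369), and 120 genes (0.766%) were at least 2-fold higher on both slides.

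The difference of the zVAD effect between genotypes was tested directly. For Ifnar1-/- zVAD alone against WT, 0 genes passed (162 unadjusted). Ccl4 differed by -3.58 (unadjusted p 0.00167), Egr1 by -2.87 (0.00311) and Tnf by -2.02 (0.215), each with an adjusted p of 0.9999. Without the replicate 2 array these values were -2.53, -2.71 and -0.65, Cxcl1 turned from -1.20 to 0.91, 0 genes passed for the difference (128 unadjusted), and 8 passed for zVAD alone in Ifnar1-/- cells, where the lone replicate is taken to vary like the other groups. Ifnar1-/- with IFNb was also set against WT alone, so that genotype and IFNb both differ. The difference with IFNb in both genotypes was not tested. Against WT alone 1 gene passed, 4933438K21Rik. Ccl4 differed by -2.77 (unadjusted p 0.0106) and Egr1 by -2.50 (0.00814), while Tnf differed by -0.25 (0.874) and Cxcl1 by 0.90 (0.669), again with adjusted p of 0.9999. Il1rn differed between zVAD and untreated Ifnar1-/- cells by -0.16 and 0.01 on the 2 slides, and by 0.03 and -0.14 with IFNb, where WT cells had 2.12 and 3.16. The difference was -2.72 for zVAD alone and -2.70 with IFNb (unadjusted p 0.000592 and 0.000636), not passing after adjustment. Levels, in contrast to changes, cannot be compared between genotypes here, since each lay on slides of its own.

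**Figure D5:**
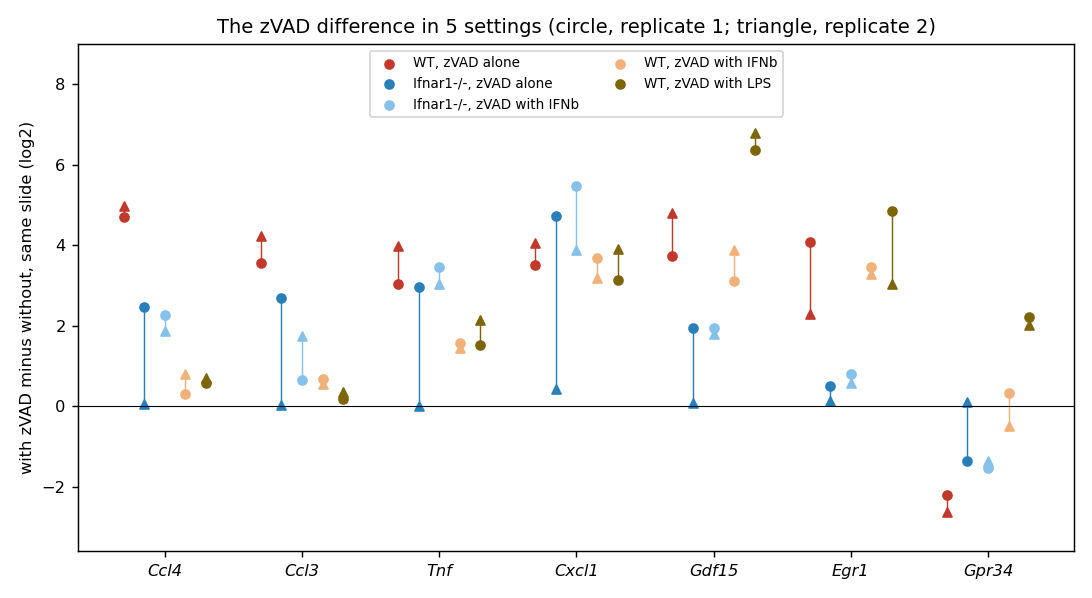
Difference made by zVAD (log2, y axis) for 7 genes in 5 settings, circles for replicate 1 and triangles for replicate 2: WT alone, Ifnar1-/- alone, Ifnar1-/- with IFNb, WT with IFNb and WT with LPS. Ccl4 is 4.70 and 4.97 in WT alone and 0.56 and 0.69 with LPS, Cxcl1 is 3.13 or more in WT in all 3 settings, and in Ifnar1-/- alone the triangles lie between -0.00 (Tnf) and 0.43 (Cxcl1).

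In WT cells the effect of zVAD was also set against its effect on a background of LPS or IFNb, comparisons that share no array with zVAD alone. Added to LPS, zVAD changed 5473 genes (34.9%), 2044 upwards and 3429 downwards, and 3405 genes passed the test of the difference from zVAD alone, 1155 with a more positive change (7.36%) and 2250 with a more negative one (14.3%). Ccl4 differed from LPS by 0.56 and 0.69 on the 2 slides, 4.21 less than without LPS (adjusted p 0.00486), and Ccl3 by 0.17 and 0.36, 3.63 less (0.0473). The Ccl3 call did not hold when any 1 of the 8 arrays was left out (adjusted p up to 0.160) and under 4 of the other settings (up to 0.120). With LPS alone Ccl4 read 18.15 and 17.81 and Ccl3 17.60 and 17.27, above their levels with zVAD alone. With LPS+zVAD Ccl4 read 18.71 and 18.51, beside 18.38 and 18.23 for Csf1r, the brightest macrophage marker, in untreated cells. Whether the scale had room for a further rise of 4.83 was not tested. The change of Gpr34 with zVAD turned from lower to higher, at 2.21 and 2.02 with LPS. The difference between the settings was 4.53 (limma adjusted p 0.0166). That call was lost without untreated replicate 2 or without LPS+zVAD replicate 2. LPS alone had lowered Gpr34, and with LPS+zVAD its level was still below those of untreated cells (10.64 and 11.21) and of zVAD alone (8.44 and 8.57). For Tnf (1.51 and 2.14 with LPS), Cxcl1 (3.13 and 3.90), Gdf15 (6.38 and 6.80) and Egr1 (4.85 and 3.04) the difference between settings did not pass (adjusted p 0.507, 0.951, 0.179 and 0.587). Added to IFNb, zVAD gave no gene that passed (627 unadjusted; 4 adjusted without the pair and 21 with the block), and none differed from zVAD alone (246 unadjusted). Ccl4, at 17.45 and 17.36 with IFNb alone, changed there by 0.30 and 0.78 (difference -4.29, unadjusted p 0.000321), and Egr1 by 3.45 and 3.28.

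List medians followed the same lines. The TNF and NF-kB list had a median difference with zVAD of 1.37 in WT alone, 0.73 in Ifnar1-/- alone, 1.61 in Ifnar1-/- with IFNb, 0.68 in WT with IFNb and -0.25 in WT with LPS. The ISG list had 0.80 in WT alone and 0.09, 0.18, -0.02 and 0.21 in those other settings, in the same order. For immediate early genes the values were 0.47 in WT alone, 0.12 and 0.11 in the Ifnar1-/- settings, 0.45 with IFNb and 1.37 with LPS. These are descriptions with no test of the list. The medians of Ifnar1-/- alone take in the replicate 2 array that lay beside the untreated arrays. Some members were already high before zVAD, as Cxcl10 at 18.15 and 17.92 with IFNb alone and 18.03 and 17.63 with LPS alone. Whether the scale had room for a further rise in those settings was not tested.

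Finally, the level with zVAD alone was set beside that with LPS alone in WT cells, a comparison in which 3648 genes were higher with zVAD (23.3%) and 2054 lower (13.1%). Gdf15 was 4.85 higher with zVAD than with LPS, where it read 10.15 and 9.76 (adjusted p 0.000203), and Egr1 was 1.67 higher (0.0355), with LPS levels of 9.29 and 9.72. Ccl4 with LPS, at 18.15 and 17.81, was 2.08 above its level with zVAD (0.0243). Ptgs2 with LPS, at 16.33 and 15.49, was 6.10 above (0.00274), and Il6, at 17.03 and 15.46, was 10.26 above (8.18e-05). Tnf, at 16.74 and 15.80 with LPS, and Cxcl1, at 14.06 and 12.92, did not pass (adjusted p 0.102 and 0.321). Gpr34 was lower with LPS, at 5.05 and 5.41, than with zVAD, a difference of 3.27 (0.00861).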

How the data were processed

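Total RNA of 32 samples (2 genotypes, 8 conditions, 2 arrays each) was hybridised to 1-colour Agilent arrays on 4 slides, slides 1 and 2 for WT and the others for Ifnar1-/-. Per the file headers, the deposited spot intensities came from Feature Extraction 11.5.1.1, background-subtracted on a linear scale with probe positions on mm9. The authors' own table held quantile-normalized log2 values of 38406 probes. It was matched to its arrays (r from 0.983 to 0.995 with the same array, column medians 7.61 to 7.80) and used as an alternative only.

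Here the processed signal was taken to log2 with outlier spots set to missing, quantile-normalized and averaged per probe. Following the filter in the study's methods, probes well above background on at least 50% of arrays were kept (31892, of which 21111 named), and the brightest probe stood for each of 15684 genes. Of 55681 probes, 32427 had a gene name: 27656 by accession, 3401 by symbol and 321 by synonym through RefSeq, and 1049 by the file's own name. Limma 3.58.1 in R 4.3.3 was fitted to 16 group means over all 32 arrays (16 residual degrees of freedom), with Benjamini-Hochberg adjustment over all genes and a threshold of 0.05. For 275 genes at least 1 array had no value and the fit used the rest.

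Same-numbered arrays share a slide, and their deviations from the group means correlated in every pair of groups (0.317 to 0.671 over 28 WT pairs, 0.166 to 0.579 over 28 Ifnar1-/- pairs), so slide was tried as a replicate block. Other alternatives changed the arrays fitted, the normalization (75th percentile shift, normexp with an offset of 50), the filter, the choice of probe and the error model, and each array was left out in turn. The scripts were tested on simulated data.

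Named genes were, in each direction, the 10 with the largest change among those called and, where fewer than 10 were called, also the 10 with the largest change among those with an unadjusted p under 0.05, non-overlapping groups and a detected higher group, a fixed set of cytokine, chemokine and cell death genes, and the highest and lowest member of each of 37 gene lists. Genes named because they passed in 1 fit were added after their values were seen. The members, the 37 lists and the fit without the discordant pair were chosen with earlier results of these data known. The number of arrays per group limits the precision. Some genes of the lists are counted but not reported by name here.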

Additional observations from a re-analysis of the deposited data

Results flagged for a closer look

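Given here are 4 genes in which the effect of zVAD alone in WT cells differed, by limma's test of the difference itself, from its effect in another setting. They are not all such genes. For the setting with LPS 3405 of 15684 genes passed, and only the few genes followed through all settings were taken from them. With LPS in place, the change with zVAD was lower by 4.21 on the log2 scale for Ccl4 (difference -4.21, adjusted p 0.00486) and by 3.63 for Ccl3 (difference -3.63, adjusted p 0.0473), 2 neighbouring chemokine genes. The Ccl3 call was lost when any 1 of the 8 arrays was left out (adjusted p up to 0.160), and the Ccl4 call held in each such fit. With LPS alone Ccl4 already read 18.15 and 17.81. Whether the scale had room there for a rise as large as with zVAD alone was not tested. For Gpr34, the lysophosphatidylserine receptor, the difference was 4.53 (limma adjusted p 0.0166). The change went from 2.42 lower with zVAD alone (log2 difference -2.42) to 2.21 and 2.02 higher than LPS alone on the 2 slides. LPS alone had lowered Gpr34, and with LPS+zVAD it was still below its level in untreated cells (10.64 and 11.21). The Gpr34 call was lost without untreated replicate 2 or LPS+zVAD replicate 2.

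The transcript 4933438K21Rik differed by 3.26 (adjusted p 0.0390) between zVAD on IFNb in Ifnar1-/- cells, where it changed by 2.82, and zVAD alone in WT cells, where it read 7.44 and 6.88 untreated and 6.50 and 6.94 with zVAD. Genotype and IFNb both differ between these settings. This comparison was added after the data were seen, and no gene passed in it under 6 of the other settings and with any of 5 arrays left out, namely WT zVAD replicate 1 or 2, WT untreated replicate 2, Ifnar1-/- IFNb+zVAD replicate 2 and Ifnar1-/- IFNb replicate 1.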

How the results depend on the processing

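The number of genes that passed for zVAD alone in WT cells, 1 with all arrays, was 4 with the 16 WT arrays only, 0 with the 4 arrays compared only (886 unadjusted), 36 without the discordant pair, 37 with slide as replicate block, 371 with both changes, 3 with the filter on both arrays of a group, 17 with array weights and 4 with a trended, robust variance. With an array left out it ran from 0 to 57. Of 124 named genes, 36 passed without the pair, 20 with the replicate block and 72 with both, and none changed sign under these settings except Casp8 (0.047) and Ripk1 (0.010), both with the 75th percentile shift. With an array left out, values near 0 changed sign: Casp8 -0.19 to 0.12, Ripk1 -0.18 to 0.071, Ifi27l2a -0.081 to 0.19 and Il10 -0.36 to 0.98. Some differences were over 1.5 times smaller with normexp: Ptgs2 3.27, Olr1 2.35, Chac1 2.22, Ccl12 1.63, Ifnb1 1.45, Slc7a11 1.41, Il6 0.73, Il1a 0.55, Rdh8 0.48, Cxcl12 -0.55, Mapt -0.98 and Epha8 -1.04. In the authors' values Hspa1a was 1.27. The MAPK phosphatase median was 0.60 with normexp, 0.70 in the authors' values and 0.98 without a filter, and the immediate early median was 0.63 with the filter on both arrays. The cytokine median, 1.02 in the main fit, ran from 0.42 to 1.13 over the settings with no compared array left out. With an array left out, medians ran from 1.01 to 1.84 (TNF and NF-kB), 0.45 to 1.88 (cytokines), 0.55 to 0.87 (chemokines), 0.35 to 0.79 (immediate early) and 0.91 to 1.58 (MAPK phosphatases).

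In the other comparisons, fits of the compared arrays only gave 1659 genes for zVAD on LPS, 1871 for zVAD against LPS and 1058 for the difference with and without LPS, for which the replicate block gave 5838. For zVAD on IFNb in WT cells the count was 4 without the pair, 21 with the block, 1 with the percentile shift, 6 with normexp, 1 in the authors' values, 15 without a filter and 25 with the filter on both arrays, and its difference from zVAD alone gave 1 with the block, 3 without a filter and 4 with the filter on both arrays. For zVAD alone in Ifnar1-/- cells it was 2 without a filter. For zVAD on IFNb in Ifnar1-/- cells it was 0 with the compared arrays only and with the percentile shift, 11 without a filter and 4 with the filter on both arrays. Its difference from WT gave 0 with the compared arrays only, the block, the percentile shift, normexp, the authors' values and the trended variance, and 2 with either change of filter. The difference with LPS for Cxcl1 turned to 0.18 with the percentile shift and 0.12 with normexp. With an array left out, counts ran from 3523 to 5188 (zVAD on LPS), 3525 to 5163 (zVAD against LPS), 2095 to 3668 (difference with LPS), 8 to 52 (zVAD on IFNb), 0 to 6 (difference with IFNb), 0 to 8 (Ifnar1-/- alone), 0 to 4 (difference from WT), 0 to 49 (Ifnar1-/- with IFNb) and 0 to 16 (its difference from WT). Differences that changed sign ran from -3.31 to 0.91 (Cxcl1, genotype), -0.83 to 0.31 and -0.13 to 1.64 (Cxcl1 and Egr1, LPS), -1.64 to 0.95, -0.70 to 1.07 and -2.24 to 0.70 (Cxcl1, Egr1 and Gdf15, IFNb) and -0.61 to 0.10 (Tnf, Ifnar1-/- with IFNb). The cause of these changes was not tested.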
